A study of Mus musculus with 6 samples.

Results

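Guanylate-binding proteins (GBPs) are large GTPases of the dynamin superfamily whose genes are among the most strongly interferon-inducible in the mouse. They were chosen by name as the 10 rows Gbp2 to Gbp11 of an expression table of 54532 genes, and all 10 were found. Interferon gamma acts on its target genes through the gamma-activated site (GAS), and type I interferon acts through the interferon-stimulated response element (ISRE), both short DNA elements near the start of a gene. GBPs then assemble on microbial membranes and on the vacuoles around intracellular parasites, where they help to open these compartments and to bring bacterial products to the inflammasome. Cells of the vessel wall are among the non-immune cells that induce them in response to interferon.

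The libraries came from mouse aortic smooth muscle cells, which per the study were isolated from the abdominal aortas of wild-type mice, serum-starved, transduced with an adenoviral vector and then treated with angiotensin II. The vector carried either a plasmid for overexpression of PDK4 (pyruvate dehydrogenase kinase 4, which restrains the entry of pyruvate into mitochondrial oxidation), in the 3 libraries labelled Ad-PDK4, or a control plasmid, in the 3 labelled Ad-Con, whose genotype label is WT. Both groups carried adenovirus and both received angiotensin II, which the labels do not mention. Untransduced and untreated cells were not analysed here. The labels give no ages and do not say that replicates were separate cultures, whereas the study calls them biological replicates, so p-values measure the spread between these samples.

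Each library held between 17588942 and 21861872 assigned reads, and 19650 to 20615 genes had at least 1 read. Pdk4 itself had 679, 642 and 646 reads in Ad-Con replicates 1 to 3 and 490, 455 and 572 in the libraries labelled Ad-PDK4. Its log2 fold change was -0.42 ± 0.06 (SE), with an adjusted p of 0.00114 (limma, Benjamini-Hochberg), so the row goes against the overexpression label, and every direction below is one between labels. The 10 smooth muscle markers summed to 132 FPKM (fragments per kilobase of gene, scaled to library size) in each Ad-Con library and to 78.4 to 86.9 in the libraries labelled Ad-PDK4. Of the 5 tested, 1 was called lower, Acta2, smooth muscle actin, which fell from 78.0 ± 0.950 to 36.2 ± 2.40 FPKM (SD, n = 3; adjusted p = 5.28e-06, limma) and makes up most of the difference in the sum. Tpm2 and Lmod1 had log2 fold changes of -0.33 (adjusted p = 0.00481, limma) and -0.29 (adjusted p = 0.357). Smtn and Myl9 stood at 0.02 and -0.04. Mylk was under the level limit for testing, a mean of 0.5 FPKM over all libraries. It had 188, 168 and 122 reads in Ad-Con and 27, 28 and 24 in the libraries labelled Ad-PDK4. Without the limit Mylk was called lower (adjusted p = 0.00197, limma). Cnn1 and Des, also under it, were lower with no overlap between the groups, and Tagln and Myh11 overlapped. Myh11, the smooth muscle myosin heavy chain, had at most 10 reads in any library, Tagln at most 20 and Cnn1 at most 30. These defining markers were thus near 0.

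Markers of other cells were compared in the same way. For comparison with the counts of called markers, 3.95% of all 13423 genes tested were called higher and 2.68% lower. The 12 macrophage and leukocyte markers summed to 27.8 to 30.9 FPKM in Ad-Con and 24.7 to 27.5 in the libraries labelled Ad-PDK4, and Ptprc, Tyrobp, C1qa, C1qb, C1qc and Itgam had 0 reads in every library. Of their 3 tested genes 1 was called lower, Cd68, with a log2 fold change of -1.74. Cd14 stood at 0.55 (adjusted p = 0.000269, limma) and Lyz2 at 0.36 (adjusted p = 0.0791), neither past 2-fold, and Csf1r, under the level limit, had 11, 23 and 35 reads against 56, 62 and 61. Among the 8 T and NK cell markers 7 had 0 reads throughout, among them Cd3e and Ncr1, and their sum was at most 0.0283 FPKM. The 8 endothelial markers summed to 1.32 to 1.66 FPKM over all libraries, with Emcn at 0 reads and neither of the 2 tested genes called. The 7 fibroblast markers summed to 1430 to 1555 FPKM in Ad-Con and 738 to 805 in the libraries labelled Ad-PDK4, where 3 of the 6 tested, Dpt, Col1a1 and Lum, were called lower (log2 fold changes of -1.36, -1.28 and -1.16). Col3a1 stood at -0.86 and Pdgfra at -0.05, and Dcn went the other way at 0.83 (adjusted p = 0.000404). These shifts moved with the same labels as the GBP genes, and the part of the Acta2 and fibroblast shifts in the GBP values was not tested. In bulk RNA, fewer cells of a type and less RNA per cell cannot be told apart.

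The family lies in 2 clusters. Gbp5, Gbp7, Gbp3 and Gbp2 follow one another on the plus strand of chromosome 3 between bases 142493978 and 142638008 (GRCm38), and Gbp8, Gbp9, Gbp4, Gbp10, Gbp6 and Gbp11 lie on the minus strand of chromosome 5 between 105014150 and 105346472. Gbp11 is annotated as a polymorphic pseudogene and the other 9 as protein coding. The chromosome 3 genes are largely unique in sequence. Of all 50-base stretches in their annotated transcripts, 2.03% in Gbp2, 3.75% in Gbp3, 1.44% in Gbp5 and 12.7% in Gbp7 also occur in another gene. In the chromosome 5 cluster that share is 7.78% for Gbp4, 8.05% for Gbp9, 18.1% for Gbp8 and 19.2% for Gbp11. For Gbp6 it is 70.7% and for Gbp10 84.1%. Of the stretches of Gbp10, 73.3% occur in Gbp6, and of those of Gbp6, 45.9% occur in Gbp10 and 65.0% in Gm43302, a protein-coding gene whose span covers Gbp10 and nearly all of Gbp6 and whose exons overlap both. How reads were split between Gbp6 and Gbp10 is therefore uncertain and the rule for reads over overlapping exons is not given in the sources used here. Gbp4, Gbp8 and Gbp9 further share a first exon of about 60 bases.

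RefSeq promoter windows, running from 250 bases before to 50 bases after a transcription start (GRCm38.p6), were found for the 4 chromosome 3 members and for their neighbour Gbp2b, and not for chromosome 5 members. They are shown because interferon induction of this family runs through short elements near the start. Capitals mark every match, on either strand, to the ISRE core GAAANNGAAA or to the GAS letters TTCNNNGAA, and sequences are plus strand, 5′ to 3′.

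Gbp5, chr3:142496684-142496983: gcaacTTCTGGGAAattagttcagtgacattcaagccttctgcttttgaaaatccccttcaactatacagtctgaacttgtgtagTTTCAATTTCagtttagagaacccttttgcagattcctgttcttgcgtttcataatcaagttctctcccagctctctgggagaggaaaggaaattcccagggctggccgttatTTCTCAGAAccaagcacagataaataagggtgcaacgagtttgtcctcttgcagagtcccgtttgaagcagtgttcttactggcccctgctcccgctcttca
Gbp7, chr3:142530086-142530385: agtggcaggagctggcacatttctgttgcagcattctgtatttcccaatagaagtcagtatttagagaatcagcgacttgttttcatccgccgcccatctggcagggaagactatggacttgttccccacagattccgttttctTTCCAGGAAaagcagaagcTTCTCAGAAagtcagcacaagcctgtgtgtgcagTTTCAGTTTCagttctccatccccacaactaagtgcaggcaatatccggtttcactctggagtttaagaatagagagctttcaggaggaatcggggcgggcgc
Gbp3, chr3:142559794-142560093: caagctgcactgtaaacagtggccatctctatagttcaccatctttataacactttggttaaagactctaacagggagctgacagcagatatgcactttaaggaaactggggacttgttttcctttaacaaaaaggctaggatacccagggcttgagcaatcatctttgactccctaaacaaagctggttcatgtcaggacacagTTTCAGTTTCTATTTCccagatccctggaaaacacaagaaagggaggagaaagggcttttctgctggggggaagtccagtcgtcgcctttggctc
Gbp2b, chr3:142594597-142594896: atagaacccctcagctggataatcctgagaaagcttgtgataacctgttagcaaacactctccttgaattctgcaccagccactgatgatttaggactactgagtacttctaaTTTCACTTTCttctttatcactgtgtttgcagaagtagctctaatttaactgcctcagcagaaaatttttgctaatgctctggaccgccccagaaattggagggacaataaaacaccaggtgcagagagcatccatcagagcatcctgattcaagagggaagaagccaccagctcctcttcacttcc
Gbp2, chr3:142620413-142620712: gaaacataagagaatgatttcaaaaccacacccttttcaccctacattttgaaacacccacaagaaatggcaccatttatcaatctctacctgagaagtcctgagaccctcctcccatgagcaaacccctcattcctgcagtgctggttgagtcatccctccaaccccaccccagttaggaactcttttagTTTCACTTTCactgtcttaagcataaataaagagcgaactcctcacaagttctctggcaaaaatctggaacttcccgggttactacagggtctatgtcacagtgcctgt

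All 4 members held an ISRE core match, which 3.44% of 32851 RefSeq promoter windows of this length hold. Each match reads on the minus strand, so that it appears above as TTTCAATTTC in Gbp5, TTTCAGTTTC in Gbp7 and Gbp3 and TTTCACTTTC in Gbp2. Its first base lies 53 bases before the start in Gbp7 and 59 before it in Gbp2. Gbp3 has 2 overlapping matches, 45 and 39 bases before the start, and its second RefSeq start (window chr3:142560106-142560405) has none. The Gbp5 match lies farther out, 165 bases before a RefSeq start that falls inside the longer gene span of the deposited table. GAS matches occurred in Gbp5 (245 and 52 bases before the start) and in Gbp7 (106 and 87 bases before it) and not in the windows of Gbp3 and Gbp2, against 8.30% of all windows. Both motifs together stand in 0.454% of all windows. Gbp2b, whose window also holds an ISRE core match (137 bases before the start), had 1 read in 1 library labelled Ad-PDK4 and 0 in the other 5. A match describes letters and not a bound site.

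On chromosome 3 all 4 genes were higher in every library labelled Ad-PDK4 than in every Ad-Con library. Gbp2, an isoprenylated member that is recruited to parasite vacuoles, had 535, 503 and 568 reads in Ad-Con replicates 1 to 3 and 4751, 4775 and 6713 in Ad-PDK4 replicates 1 to 3. Its level was 11.4 ± 1.0 FPKM (SD, n = 3) in Ad-Con and 111 ± 8.80 in the libraries labelled Ad-PDK4. The log2 fold change was 3.27 ± 0.08 (SE), with an adjusted p of 1.07e-07. Gbp2 was thus the most abundant member in both groups, and among the 13423 genes tested its mean level moved from place 4581 to place 384. Gbp3, the next of the 4 along the cluster, had 439, 397 and 431 reads in Ad-Con and 5736, 5405 and 7802 in the libraries labelled Ad-PDK4. That is 6.94 ± 0.338 against 99.8 ± 7.35 FPKM (SD, n = 3), a log2 fold change of 3.83 ± 0.07 (SE; adjusted p = 3.36e-08, limma). The spread of both genes within a group was small beside the gap between groups, and in the libraries labelled Ad-PDK4 the ranges of Gbp2 and Gbp3 overlapped, which they did not in Ad-Con.

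Gbp7, a member linked to assembly of the phagocyte NADPH oxidase, had 200, 181 and 264 reads in Ad-Con and 1685, 1438 and 2188 in the libraries labelled Ad-PDK4. It went from 2.06 ± 0.464 to 16.3 ± 1.52 FPKM (SD, n = 3), with a log2 fold change of 2.94 ± 0.15 (SE; adjusted p = 5.63e-06, limma). This was the smallest log2 fold change among the 8 members tested, although with a pseudocount of 1 those of Gbp11 and Gbp10 were smaller. Gbp5, an isoprenylated member known for promoting inflammasome assembly, had 44, 21 and 21 reads in Ad-Con and 811, 659 and 1190 in the libraries labelled Ad-PDK4. Its level rose from 0.227 ± 0.0857 to 6.84 ± 1.23 FPKM (SD, n = 3), a log2 fold change of 4.42 ± 0.22 (SE; adjusted p = 3.6e-06, limma). Gbp5 stood at place 13338 of 13423 in Ad-Con and at place 6599 in the libraries labelled Ad-PDK4. It met the level limit for this ranking only through the latter, so its low place in Ad-Con follows in part from the limit.

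The chromosome 5 genes were nearly silent in Ad-Con. Gbp9 was the exception, with 26, 51 and 29 reads there and 989, 850 and 1326 in the libraries labelled Ad-PDK4. Its level went from 0.373 ± 0.167 to 10.5 ± 1.11 FPKM (SD, n = 3), a log2 fold change of 4.54 ± 0.23 (SE; adjusted p = 5.92e-06, limma). Gbp6 had 5, 11 and 8 reads in Ad-Con and 702, 600 and 1026 in the libraries labelled Ad-PDK4. From 0.0735 ± 0.032 it reached 6.68 ± 1.04 FPKM (SD, n = 3), and its log2 fold change of 5.29 ± 0.21 (SE; adjusted p = 1.19e-06, limma) was the largest among the 8 tested at this pseudocount (with limma-voom that of Gbp10 was larger, and with a pseudocount of 1 that of Gbp3). Gbp10 had 1, 0 and 0 reads in Ad-Con and 149, 109 and 168 in the libraries labelled Ad-PDK4, where it stood at 1.90 ± 0.260 FPKM (SD, n = 3). Set against a floor of 3 reads in each Ad-Con library, that mean of Gbp10 was 45.5-fold higher. Its fitted log2 fold change of 4.25 ± 0.35 (SE; adjusted p = 5.97e-05, limma) depends on the pseudocount. Because Gbp10 shares most of its sequence with Gbp6, the reads of both were also summed, which gave 6, 11 and 8 against 851, 709 and 1194. The sum had a log2 fold change of 5.66 (adjusted p = 4.4e-07, limma), so the difference did not turn on how reads were split between these 2 genes.

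Gbp11, the polymorphic pseudogene, had 2, 3 and 8 reads in Ad-Con and 81, 82 and 127 in the libraries labelled Ad-PDK4. Its level was 0.0880 ± 0.0671 against 1.84 ± 0.257 FPKM (SD, n = 3), a log2 fold change of 3.42 ± 0.34 (SE; adjusted p = 0.00016, limma). Gbp4 and Gbp8 stayed under the level limit for testing, a mean of 0.5 FPKM over all libraries. Gbp4 had 3, 0 and 1 reads in Ad-Con and 134, 97 and 161 in the libraries labelled Ad-PDK4, where its mean was 41.7-fold the floor. Without the limit the adjusted p of Gbp4 was 0.000277 (limma). Gbp8 was the least abundant member, with 1, 0 and 0 reads against 7, 9 and 13, at least 3.07-fold higher against the floor (adjusted p = 0.0168 without the limit). All 3 Ad-Con libraries were at or under 3 reads for Gbp4, Gbp8 and Gbp10, so at this depth their level in Ad-Con was not measurable.

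**Figure D1:**
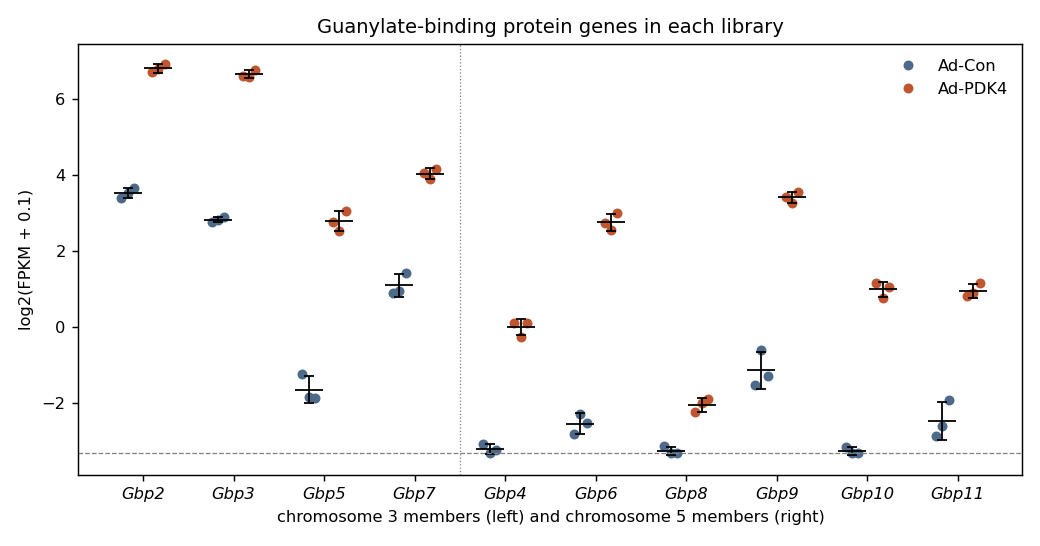
Level of each guanylate-binding protein gene, as log2(FPKM + 0.1), in the 3 Ad-Con and the 3 Ad-PDK4 libraries. Points are libraries, the wide black bar is the group mean, whiskers are 1 SD, and the dashed line is a value of 0 FPKM. Orange points stand above blue points for all 10 genes, and Gbp4, Gbp8 and Gbp10 sit at or near the dashed line in Ad-Con.

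Of the 10 members, 8 passed the level limit and all 8 of these were called higher (adjusted p below 0.05 and at least 2-fold), against 3.95% of all 13423 genes tested. None was called lower, against 2.68% of all genes. For 5 of the 8 (Gbp5, Gbp6, Gbp9, Gbp10 and Gbp11) the level limit was met only through the libraries labelled Ad-PDK4, so that their call follows in part from the limit. The other 3, Gbp2, Gbp3 and Gbp7, met it in Ad-Con alone. Every Ad-PDK4 library exceeded every Ad-Con library in all 10 members, which is the case for 27.8% of all genes tested. Without the limit, all 10 members were called higher, against 2.92% of 25202 genes. With a limit of 5 FPKM, 4 members were left and were called higher, against 3.34% of 7731 genes, and Gbp7 and Gbp9 met this limit only through the libraries labelled Ad-PDK4.

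The size of the change depended little on the processing for the abundant members and more for the scarce ones. Over all alternatives of processing the log2 fold change ran from 3.17 to 3.33 for Gbp2, from 3.66 to 3.87 for Gbp3 and from 2.50 to 3.11 for Gbp7. It ran from 2.67 to 4.92 for Gbp5, from 3.07 to 4.91 for Gbp9 and from 2.83 to 6.54 for Gbp6. The widest spans were those of Gbp11 (1.38 to 4.49) and Gbp10 (1.52 to 7.56). For these 5 genes the lowest value came with a pseudocount of 1 and the highest with limma-voom on the recovered reads. Among the libraries labelled Ad-PDK4, replicate 3 held the highest FPKM for 8 of the 10 members and replicate 1 for Gbp4 and Gbp10.

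**Figure D2:**
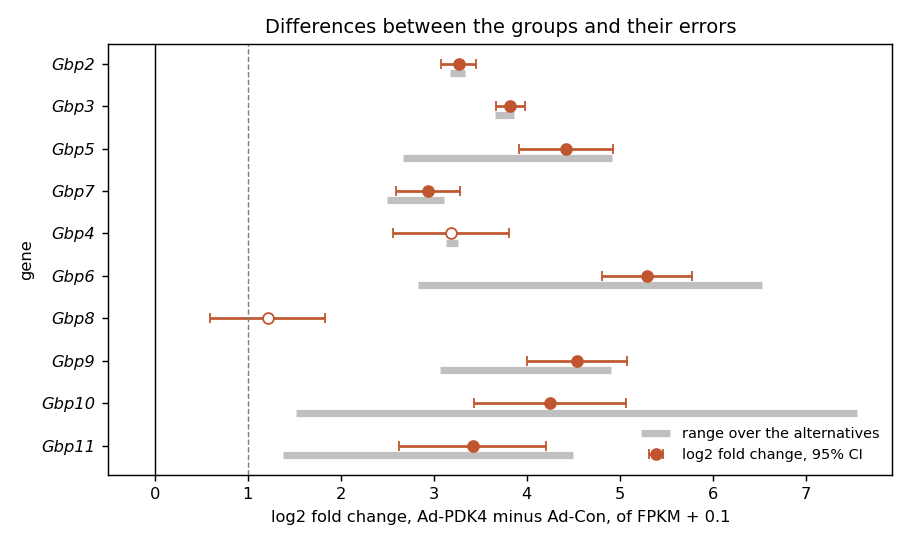
Log2 fold change of FPKM + 0.1 between Ad-PDK4 and Ad-Con for each member, with its 95% confidence interval from limma. Open circles are Gbp4 and Gbp8, taken from the fit without a level limit, and grey bars span the values under the alternatives of processing (Gbp8 has none and Gbp4 only those that leave out an Ad-Con library). The intervals of all 8 tested members lie above the dashed line at a log2 fold change of 1, and the grey bar is longest for Gbp10 (1.52 to 7.56).

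Summed over the 10 genes, the family stood at 19.5, 21.1 and 23.1 FPKM in Ad-Con and at 245, 243 and 279 FPKM in the libraries labelled Ad-PDK4. The means were 21.2 ± 1.78 and 256 ± 20.5 FPKM (SD, n = 3), a ratio of 12.1. The exact two-sided permutation test over the 20 arrangements gave p = 0.1, the smallest value that 3 against 3 libraries can give. In reads the family took 1167 to 1330 of all assigned reads of a library in Ad-Con and 14024 to 20714 in the libraries labelled Ad-PDK4.

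Gbp2, Gbp3, Gbp7, Gbp9 and Gbp5 held the first 5 places in both groups. In Ad-Con, Gbp2 stood above Gbp3 and Gbp3 above Gbp7 with no overlap of ranges. Gbp9 and Gbp5 followed with overlapping ranges, then Gbp11 and Gbp6, also overlapping, and last Gbp4, Gbp8 and Gbp10 with 0 to 3 reads. In the libraries labelled Ad-PDK4, Gbp2 and Gbp3 overlapped at the top, followed by Gbp7, by Gbp9, by Gbp5 together with Gbp6, by Gbp10 together with Gbp11, by Gbp4 and by Gbp8.

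The make-up of the sum differed between the labels. The share of the chromosome 3 genes was 97.4 ± 0.798% (SD, n = 3) in Ad-Con and 91.4 ± 0.508% in the libraries labelled Ad-PDK4. The difference was -5.98 percentage points, with exact permutation p = 0.1, again the smallest possible. Gbp2 took 53.9 ± 0.270% of the sum in Ad-Con and 43.4 ± 1.2% in the libraries labelled Ad-PDK4. Gbp3 took 32.8 ± 1.15% and then 39.0 ± 0.314%, and Gbp7 went from 9.65 ± 1.39% to 6.36 ± 0.348%. The ranges of these 3 shares did not overlap between the groups. Gbp9 took 1.76 ± 0.788% and then 4.10 ± 0.212%, Gbp5 1.09 ± 0.501% and then 2.66 ± 0.292%, and Gbp6 0.344 ± 0.145% and then 2.60 ± 0.213%. Only Gbp8 and Gbp11 had shares that overlapped between the groups.

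**Figure D3:**
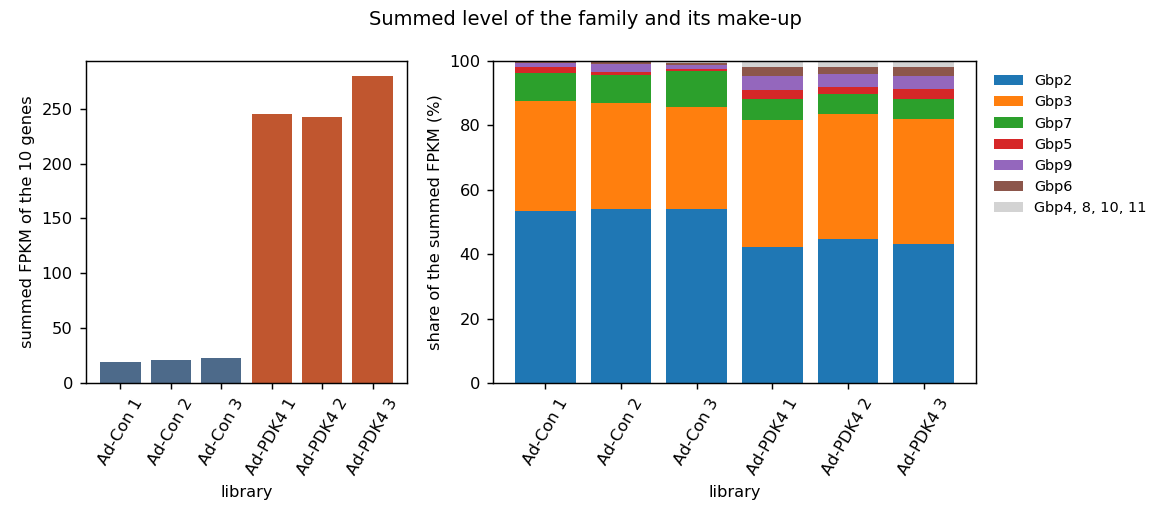
Left, summed FPKM of the 10 genes in each library, as bars from 0. Right, percentage of that sum taken by each gene in the same libraries, with Gbp4, Gbp8, Gbp10 and Gbp11 pooled in grey. The sum lies between 19.5 and 23.1 FPKM in Ad-Con and between 243 and 279 in Ad-PDK4, and Gbp2 and Gbp3 make up most of it in all 6 libraries.

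The rest of the table held 2 further rows named Gbp, and neither was measurable. Gbp2b, which lies between Gbp3 and Gbp2 on chromosome 3, had the single read given above, and the pseudogene Gbp2-ps just beyond Gbp2 had 0 reads in every library. Gm43302, whose exons overlap Gbp6 and Gbp10, had 0 reads in Ad-Con and 0, 2 and 1 in the libraries labelled Ad-PDK4. Within 500 kb of a member lay 37 other genes, of which 13 passed the level limit. Of these 13, 1 was called higher and 1 lower, against 3.95% and 2.68% of all genes tested. With so few genes, these counts are not read as a trait of the neighbourhood. The median log2 fold change of the 13 was 0.27 against -0.0031 over all genes tested. Bmpr1b, a bone morphogenetic protein receptor on the chromosome 3 side, had 39, 29 and 40 reads in Ad-Con and 89, 74 and 129 in the libraries labelled Ad-PDK4 (log2 fold change of 1.14, adjusted p = 0.0114, limma). Its call was lost with a pseudocount of 1 and without Ad-PDK4 replicate 3. Lrrc8b, a subunit of volume-regulated anion channels beside Gbp11, had 268, 214 and 255 reads against 120, 86 and 128 (log2 fold change of -1.11, adjusted p = 0.000836, limma), a call also lost with a pseudocount of 1. Kyat3 and Gtf2b, the nearest tested genes beyond Gbp2 and chosen here for their place, had log2 fold changes of -0.61 (adjusted p = 0.0525) and 0.21 (adjusted p = 0.107).

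**Figure D4:**
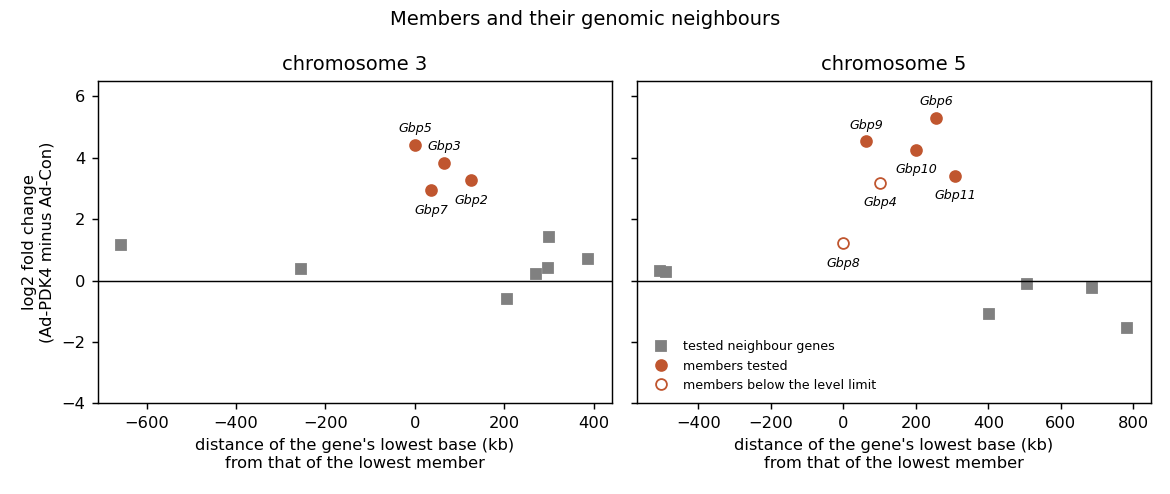
Log2 fold change (Ad-PDK4 minus Ad-Con, of FPKM + 0.1) of the members and of the tested genes around them, against the distance in kb of each gene's lowest base from that of the first member of its cluster. Filled circles are tested members, open circles are Gbp4 and Gbp8 from the fit without a level limit, and grey squares are neighbours. The 8 tested members lie between 2.94 and 5.29, and the 13 neighbours lie between -1.55 and 1.43.

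Genes that act with the GBPs were read from lists. The immunity-related GTPases (IRGs), smaller interferon-inducible GTPases that load onto parasite vacuoles together with GBPs, were higher throughout. All 8 that were in the table passed the level limit and were called higher, against 3.95% of all genes tested. Their median log2 fold change was 4.51 (-0.0031 over all genes tested). Their summed level was 44.3 to 56.8 FPKM in Ad-Con against 529 to 622 in the libraries labelled Ad-PDK4. Tgtp1 went from 0.513 ± 0.146 to 57.8 ± 6.58 FPKM (SD, n = 3), Tgtp2 from 0.770 ± 0.244 to 53.0 ± 8.14 and Iigp1 from 1.48 ± 0.480 to 93.5 ± 13.4. Of the 8, Gm12250, annotated as a processed pseudogene, met the level limit only through the libraries labelled Ad-PDK4. Tgtp1 and Tgtp2 are close copies of each other, so the split of reads between them is uncertain. The log2 fold changes of the IRG genes ran from 2.33 to 6.59, and those of the 8 tested GBP genes from 2.94 to 5.29.

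Genes that carry the interferon signal also moved. Of 15 receptors and transducers 14 were tested, 7 were called higher and none lower, and 10 passed the adjusted p alone, all of them higher. Over all genes tested, 3.95% were called higher and 2.68% lower. By the adjusted p alone, 21.8% of all genes passed as higher and 20.8% as lower. Stat2 rose from 8.38 ± 0.187 to 52.1 ± 3.36 FPKM (SD, n = 3; log2 fold change of 2.62, adjusted p = 9.61e-08, limma). Irf9 rose from 9.88 ± 0.455 to 29.7 ± 0.953 FPKM (1.58, adjusted p = 6.71e-07). Both take part in the type I interferon response at the ISRE. Irf1, the transcription factor that is needed for full GBP induction, rose from 9.79 ± 0.279 to 25.1 ± 1.27 FPKM (1.35, adjusted p = 1.76e-06). The feedback inhibitors Usp18 and Socs1 rose too, with log2 fold changes of 2.47 and 1.02 (adjusted p = 6.58e-08 and 0.00257).

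Among the receptors, Ifnar2 of the type I receptor rose with a log2 fold change of 1.22 (adjusted p = 1.45e-06, limma) and its partner Ifnar1 stood at 0.04 (adjusted p = 0.643). Ifngr1 and Ifngr2 of the interferon gamma receptor had log2 fold changes of 0.36 (adjusted p = 0.00219) and 0.06 (adjusted p = 0.532). The kinases Jak1, Jak2 and Tyk2 had log2 fold changes of 0.10, 0.77 and 0.20, of which only that of Jak2 passed the adjusted p (0.00021). Irf2 stood at 0.42 (adjusted p = 0.00566), and Irf8 was under the level limit with at most 6 reads in any library.

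Of the 8 interferon genes none reached the level limit. Ifng, Ifna1, Ifna2, Ifna4, Ifnl2 and Ifnl3 had 0 reads in every library, which at this depth allows up to 3 reads in each, and Ifna5 had 1 read in 1 library labelled Ad-PDK4. Ifnb1, which encodes interferon beta, had 0, 0 and 0 reads in Ad-Con and 7, 5 and 5 in the libraries labelled Ad-PDK4, with no overlap between the groups. With no limit on level it was the 1 interferon gene called higher, where 2.92% of 25202 genes were.

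Interferon targets outside the family were split by the type of interferon they are mainly known for. All 10 type I targets were called higher, against 3.95% of all genes tested, with a median log2 fold change of 3.74. Mx1 met the level limit only through the libraries labelled Ad-PDK4. Rsad2, Ifit1 and Isg15 had the largest rises (5.52, 5.05 and 4.89). Of the 10 genes known mainly for interferon gamma only 3 were tested. Against the same share of all genes, 2 were called higher. These were Cd74, the invariant chain of MHC class II, from 0.0990 ± 0.0520 to 1.8 ± 0.178 FPKM (SD, n = 3), and the serpin Serpina3g, from 0.932 ± 0.357 to 6.24 ± 1.05 FPKM. Cd74 met the level limit only through the libraries labelled Ad-PDK4, so that its call follows in part from the limit. Nos2, under the limit, had 0, 0 and 0 reads in Ad-Con and 59, 44 and 84 in the libraries labelled Ad-PDK4. Without the limit Nos2 was called higher too (adjusted p = 0.000448, limma), which made 3 of this list. No test compared the lists.

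Downstream partners moved in part. Of 12 inflammasome and pyroptosis genes 5 were tested and 3 were called higher, against 3.95% of all genes tested. Casp4, which in the mouse encodes caspase-11, the receptor of cytosolic lipopolysaccharide, rose from 1.65 ± 0.214 to 14.9 ± 1.53 FPKM (SD, n = 3; log2 fold change of 3.10, adjusted p = 8.43e-07, limma). Casp1 rose from 0.644 ± 0.316 to 3.55 ± 0.506 FPKM and Gsdmd, the pore-forming substrate of both caspases, from 8.34 ± 0.401 to 25.8 ± 1.26 FPKM, with log2 fold changes of 2.37 and 1.62. Of the other 2 tested, Gsdme stood at 0.05 and Il18 went the other way, from 3.74 ± 1.49 to 1.85 ± 0.716 FPKM (log2 fold change of -0.97, adjusted p = 0.0986), and was called lower with limma-voom and without Ad-Con replicate 2. The remaining 7 genes of the list were under the level limit. Among them Il1b had 0 reads and Nlrp3 at most 4 in any library. Aim2 had 0, 3 and 0 reads in Ad-Con and 18, 24 and 16 in the libraries labelled Ad-PDK4. The mean of Aim2 there was 6.38-fold the floor (adjusted p = 0.0113 without the limit, limma). Without the limit 4 genes of the list were called higher, Aim2 among them, against 2.92% of 25202 genes. None of the list was called lower. The study named inflammasome genes in these same libraries, so this list is not independent of them.

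No listed gene of the machinery that places GBPs on membranes was called, where 3.95% of all genes tested were called higher and 2.68% lower. With lists this short, no call is near those shares. The list of 11 under ATG8 conjugation, which guides GBPs and IRGs to vacuoles, holds conjugation factors, ATG8 genes and an autophagy receptor. Their log2 fold changes ran from -0.42 to 0.43 (median 0.00444). By the adjusted p alone 1 conjugation factor was higher and 3 ATG8 genes were lower, against 21.8% and 20.8% of all genes tested. None of the 7 listed genes of prenylation, the lipid anchoring of Gbp2 and Gbp5, was called either. The log2 fold changes of these 7 ran from -0.40 to 0.45. By the adjusted p alone 3 were higher and 2 lower, to be read beside the same shares.

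**Figure D5:**
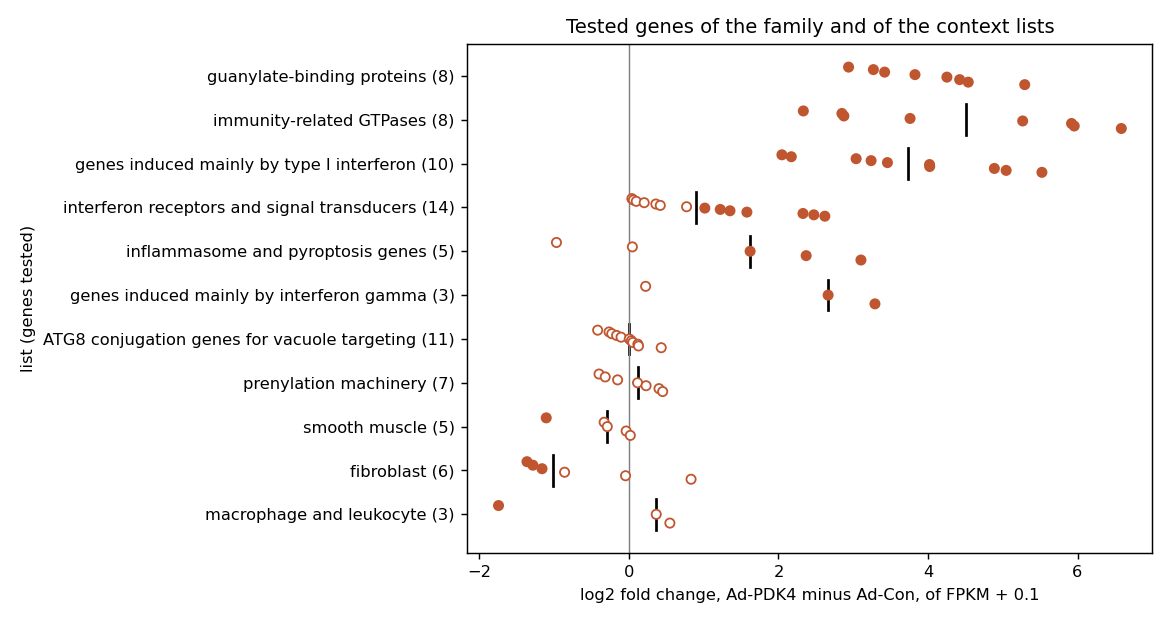
Log2 fold change (Ad-PDK4 minus Ad-Con, of FPKM + 0.1) of each tested gene of the family, of the lists of partner genes and of the marker lists, with the number tested in brackets. Filled points were called, open points were not, and the black tick is the list's median. The medians are 4.51 for the IRGs and 3.74 for type I interferon targets, and none is drawn for the GBPs. That of the list under ATG8 conjugation lies at 0.00444.

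The genes whose pattern over the 6 libraries was most like the mean of the 8 tested members were Ly6a, Ifi207, Slfn2, Oasl2 and Oasl1, out of 7727 other genes with a mean of at least 5 FPKM. Likeness was the root mean square difference of centred log2(FPKM + 0.1) values, which was 0.0993 for Ly6a and 0.109, 0.119, 0.122 and 0.123 for the next 4. Ly6a, the surface antigen Sca-1, went from 13.3 ± 0.478 to 201 ± 14.9 FPKM (SD, n = 3). The 6 libraries fall into 2 groups, so this likeness is mostly that of the difference between the labels and of no finer pattern.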

How the data were processed

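RNA sequencing (paired-end Illumina reads) was available for 3 Ad-Con and 3 Ad-PDK4 libraries, grouped by treatment label and numbered by title. The labels name a SMARTER library kit and the methods a NEBNext Ultra kit. The submitters' processing notes list CASAVA 1.8, fastp, HISAT2 2.0.5, featureCounts 1.5.0-p3, DESeq2 1.20.0 and GRCm39, without roles. The authors deposited FPKM per gene and library, unpooled, with gene lengths and coordinates. Of the identifiers, 54409 matched GENCODE M21 and 98.3% of these had the same GRCm38 coordinates, so positions are given on GRCm38. Whether counting used strand is not given in the sources used here.

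Multiplied by gene length, 100% of the non-zero FPKM values were whole multiples of 1 step per library (tolerance 0.01), and these multiples are called reads. The library sizes behind the FPKM equalled median-of-ratios size factors, so the values were already scaled between libraries. Because FPKM is no count, log2(FPKM + 0.1) was tested with limma 3.58.1 (R 4.3.3; trend, robust; no covariates) over the 13423 genes with a mean of at least 0.5 FPKM, in place of the study's count test. Adjusted p-values are Benjamini-Hochberg values over all genes tested. The call needed both an adjusted p below 0.05 and a fold of at least 2. The limma steps were tested on simulated data. Fold changes are on the log2(FPKM + 0.1) scale and understate changes of low genes. Folds against the floor divide the Ad-PDK4 mean by a floor of 3 reads per Ad-Con library and allow no counting error in that mean. Depth intervals cover counting error only. The summed level and the chromosome 3 share were tested by exact two-sided permutation.

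The members and the gene lists were chosen with earlier results of these data known. Genes named were all rows called Gbp and a digit, Pdk4, all interferon genes and interferon receptors and transducers (1 transducer is not reported here), up to 3 called genes per direction in each other list, up to 4 called neighbours and the 5 genes most like the tested members. Zero-read markers, Myh11, Smtn, Myl9, Cd14, Lyz2, Csf1r, Col3a1, Pdgfra, Dcn, Gsdme, Il18, Gm12250, Mx1, Kyat3, Gtf2b and Gm43302 were named after their values or places were seen. The same holds for Tpm2, Lmod1, Mylk, Cnn1, Des, Tagln, Nlrp3, Aim2, Nos2, Ido1, Ciita, Cxcl9, H2-Eb1, H2-Aa and H2-Ab1. Irgb10, listed among the IRGs, matched no row under that name, and other names of this gene were not searched, so it may be present under another. Uniqueness was counted over 50-base stretches of GENCODE M21 transcripts, and promoters came from RefSeq. The alternatives were pseudocounts of 1 and 0.01, no level limit, a limit of 5 FPKM, TPM, median-of-ratios and quantile scaling, limma without trend and robust, limma-voom, the replicate block, leaving out each library, and Gbp6 and Gbp10 summed.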

Additional observations from a re-analysis of the deposited data

How the results depend on the processing

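All 8 tested members stayed called higher under both other pseudocounts, the 3 rescalings, limma without trend and robust, limma-voom and the replicate block, and the count was 8 to 9 when 1 library was left out (Gbp4 then met the level limit without any of the Ad-Con libraries). A limit of 5 FPKM left 4 members to test, and all 4 were called. Over all genes that limit left 258 called higher and 114 lower of 7731 tested, where the limit of 0.5 FPKM gave 530 and 360. A pseudocount of 1 gave 361 called higher and 153 lower, and the cause was not tested. Leaving out 1 library gave 489 to 559 called higher and 332 to 387 lower. On the recovered reads limma-voom called 553 higher and 407 lower, and no level limit gave 735 and 495. Pdk4 stayed lower in all alternatives, at log2 fold changes of -0.47 to -0.38. With 1 library left out, the ratio of the summed level was 11.5 to 12.6 and the difference in chromosome 3 share -6.42 to -5.63 points, with p at the smallest value each design allows (0.1 or more).

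Same-numbered libraries did not deviate together (correlations of -0.046, -0.0311 and -0.00129), and no library labelled Ad-PDK4 correlated best with its own number, so the numbers were not taken as pairs. With the replicate block 529 genes were called higher and 354 lower, and 8 members higher.

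Depth limits Gbp4, Gbp8 and Gbp10 in Ad-Con, where no library passed 3 reads.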
